A study of Caenorhabditis elegans with 95 samples.

Results

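Of the 17118 genes that have a symbol on the array used in this series, 6 are described here, each encoding an enzyme of glycerol, trehalose or glycogen metabolism: gpdh-1, gpdh-2, tps-1, tps-2, gsy-1 and pygl-1. They were taken by gene symbol from a list drawn up with earlier results of these data known. In all, 9 probe sets carry these symbols, 2 each for gpdh-2, tps-1 and gsy-1 and 1 for each of the other genes. All 9 passed the filter on probe sets that stay at an array's floor in each of the 5 conditions. RNA came from whole adults of N2, the wild-type strain of C. elegans, grown as synchronised populations on HB101 bacteria and kept from the L4 larval stage on 25 µM FUDR, a drug that stops DNA synthesis and so the development of embryos. LD animals had 5 days of 12 h light and 12 h darkness at a constant 18 °C, and DD is their next day in constant darkness at 18 °C. WC animals had 4 days of 12 h at 25 °C and 12 h at 15 °C, always in darkness, and CC is their next day at a constant 15 °C. Control animals were never entrained and were kept in darkness in the same incubator and at the same time as entrained ones. The paper uses them beside its light experiment only, and no temperature is given for them here, so they are not a matched control of WC or CC. Samples were taken at hours 2, 6, 10, 14, 18 and 22 of the day, counted from lights on or from warming, and the free-running day is given on the same clock. The data are 95 arrays: 18 of LD (series 3, 4 and 6), 18 of DD (series 2, 4 and 6), 30 of WC (series 1, 2, 3, 4 and 6), 18 of CC (series 3, 4 and 6) and 11 of the control (series 4 and 6, without hour 6 of series 6). By the labels, 5 arrays (2 LD and 3 CC) each stand for 2 biological replicates. The study kept 2 populations under opposing cycles, and the labels do not say which samples came from which, so that hours of 1 series may come from different animals and p values measure only the spread between these arrays.

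Glycerol, trehalose and glycogen are alternative fates of the same sugar. Glycerol 3-phosphate dehydrogenase turns dihydroxyacetone phosphate, an intermediate of glycolysis, into glycerol 3-phosphate, the precursor of glycerol. In C. elegans glycerol is the main solute built up against water loss in salty surroundings, and gpdh-1 is the isoform whose transcript is known to rise under that stress, while gpdh-2 is the more constant of the pair. Trehalose 6-phosphate synthase (tps-1 and tps-2) joins UDP-glucose to glucose 6-phosphate in the first step towards trehalose, a disaccharide that protects membranes and proteins in dauer larvae and drying animals. Glycogen synthase (gsy-1) takes the same UDP-glucose into the branched store glycogen, and glycogen phosphorylase (pygl-1) releases glucose 1-phosphate from it.

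The deposited values are scores in units of an array's standard deviation, each relative, by the study's methods, to the mean of its time series. A score of 0 is close to the series mean of that probe set and says nothing of its level, so neither levels nor fold changes are given, and all values below are scores or differences of scores. Scores also cannot be compared for level between days that were centred apart. Only WC and CC of series 3, 4 and 6, and LD and DD of series 4 and 6, were centred over both days together, and comparisons of level between days are limited to these. WC series 1 was centred on its own day. For WC series 2 no centring was found, so that its 0 may not be its series mean. A score of 0 is therefore not the same reference in every WC series. In whole animals, fewer cells of a type and less RNA per cell cannot be told apart.

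The members differed widely in how much their scores moved. Among the probe sets kept in WC, gpdh-1 had a standard deviation over the 30 arrays of 2.50, larger than that of 97.2% of them. The tps-1 probe set 173799_at was close to it, at 2.24 (larger than 95.9%), and the other tps-1 probe set, 191318_s_at, had 1.48 (85.7%). The gpdh-2 probe sets lay at the other end, with 0.29 (9.63%) and 0.44 (20.4%), and pygl-1 had 0.42 (18.7%). gpdh-2 was also among the steadiest probe sets in LD, where its standard deviations were 0.21 for each probe set (larger than 6.57% and 6.81% of those kept).

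gpdh-1 was higher at 25 °C than at 15 °C at the same hours of the day. At hours 2, 6 and 10 of WC, when the animals were at 25 °C, its 9 scores in series 3, 4 and 6 had a lowest value of 0.36, a median of 1.62 and a highest of 5.30. At the same hours of CC, at 15 °C, they had a lowest of -2.56, a median of -0.65 and a highest of 0.04. The groups did not overlap, and the warm array was the higher in all 9 matched pairs of series and hour. By series, the 3 warm scores averaged 1.20, 3.18 and 1.57 in series 3, 4 and 6, against -1.75, -0.76 and -0.33 at 15 °C. The difference was 2.93 (SE 0.71, limma, adjusted p = 0.0032), and over series it ranged from 1.90 to 3.94. Temperature, the day of sampling and the change from cycles to constant conditions cannot be told apart in this contrast. Leaving out series 4 gave 2.42 with an adjusted p of 0.0826.

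Across all features, 28.9% of the 17646 probe sets tested were called in this contrast (13.1% higher and 15.9% lower at 25 °C), and 3 of the 9 probe sets of the 6 genes were called. The others called were gsy-1, described below, and gpdh-2. At hours 14, 18 and 22, when both days were at 15 °C, gpdh-1 ranged from -2.94 to 2.11 on the WC day and from -3.18 to 0.45 on the CC day, with medians of -0.68 and -0.97. These groups overlapped, and the difference of 0.55 (SE 0.71) had an adjusted p of 0.697. None of the 9 probe sets was called at these hours, against 13.6% of all probe sets (7.81% higher and 5.80% lower in WC), and none of the 9 had an unadjusted p below 0.05 in limma. The contrast of early with late hours was not shown to differ between the WC and CC days for gpdh-1 (1.71, SE 1.28, adjusted p = 0.498, and 2.37, adjusted p = 0.163, in the 3 series with both days, a comparison added after seeing the data).

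Within the warm/cold day itself gpdh-1 followed no single course. Series 1 started at 6.21 at hour 2, fell to -3.98 at hour 10 and stood at 3.82 at hour 22. Series 4 was at 0.36 at hour 2, rose to 5.30 and 3.89 at hours 6 and 10 and lay between -1.74 and -0.68 in the cold phase. Series 3 and 6 were above 0 at all 3 warm hours and crossed 0 in the cold phase. Series 2 stayed between -0.42 and 0.16 in the warm phase. In series 2 and 3 the highest score of the day, 1.54 and 2.11, came at hour 22, in the cold phase at 15 °C. The mean of the warm hours was above that of the cold hours in 5 of 5 series, by 0.29 to 4.25, and the fitted difference of 1.80 (SE 0.90) did not pass the test (limma, adjusted p = 0.32). The 24-h cosine had an amplitude, from mean to peak, of 1.52 (SE 0.61, adjusted p = 0.277).

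In the light experiment the series differed for gpdh-1. In series 6 its 6 LD scores were -1.70, -2.11, -2.49, -1.60, -1.54 and -1.93 from hour 2 to hour 22, and its 6 DD scores were 1.13, 3.69, 1.38, 0.96, 1.09 and 1.92. In series 4, centred over both days in the same way, LD scores lay between -0.25 and 0.46 and DD scores between -0.35 and 0.06. All 6 hours were higher in DD in series 6, with no overlap, whereas in series 4 the days overlapped at the light hours and LD was the higher at the dark hours. The light hours minus the same hours of constant darkness gave -2.10 (SE 0.81, limma, adjusted p = 0.0775), made up of -4.17 in series 6 and -0.04 in series 4. At hours 14 to 22 the difference was -1.34 (SE 0.81, adjusted p = 0.235), made up of -3.01 in series 6 and 0.34 in series 4. In LD series 3 and DD series 2, each centred on its own day, the scores ranged from -0.16 to 0.45 and from -0.11 to 0.21. The floor filter pools all series of a condition, so it does not show whether gpdh-1 was away from the floor in each series. In the control, gpdh-1 ranged from -0.98 to 1.78 in series 4 and from -2.17 to 2.21 in series 6, so that unentrained animals also held scores more than 2 units from 0.

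gpdh-2 moved little, and its probe set 192756_s_at was lower at 25 °C than at 15 °C at matched hours. Here too, temperature, the day of sampling and the change from cycles to constant conditions cannot be told apart. For probe set 192756_s_at, the 9 scores at 25 °C had a lowest of -0.95, a median of -0.24 and a highest of 0.02, and those at 15 °C a lowest of -0.24, a median of 0.05 and a highest of 0.42. The ranges overlapped, and the score was lower at 25 °C in 7 of 9 matched pairs. The difference was -0.40 (SE 0.12, adjusted p = 0.0123), and by series it ran from -0.80 to -0.01. Without series 4 it was -0.20 (adjusted p = 0.288) and without series 6 it was -0.40 (adjusted p = 0.156). The other gpdh-2 probe set, 173263_s_at, gave -0.24 (SE 0.12, adjusted p = 0.149) and was lower at 25 °C in 6 of 9 pairs. For 192756_s_at the contrast of early with late hours was not shown to differ between WC and CC (-0.50, SE 0.20, limma, adjusted p = 0.146). At hour 2 of WC, 192756_s_at stood at -0.11, -0.95, -0.25, -0.92 and -0.20 in series 3, 4, 6, 2 and 1, where 0 is not the same reference in every series. Hour 2 minus hour 22 of the same day was -0.70 (SE 0.24, adjusted p = 0.221). In LD, DD and the control neither gpdh-2 probe set passed a test of a 24-h rhythm or of early against late hours (lowest adjusted p = 0.559). Both gpdh-2 probe sets, like 191318_s_at of tps-1 and the pygl-1 probe set, have IDs ending in _s_at, a class that can match more than 1 transcript.

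**Figure D1:**
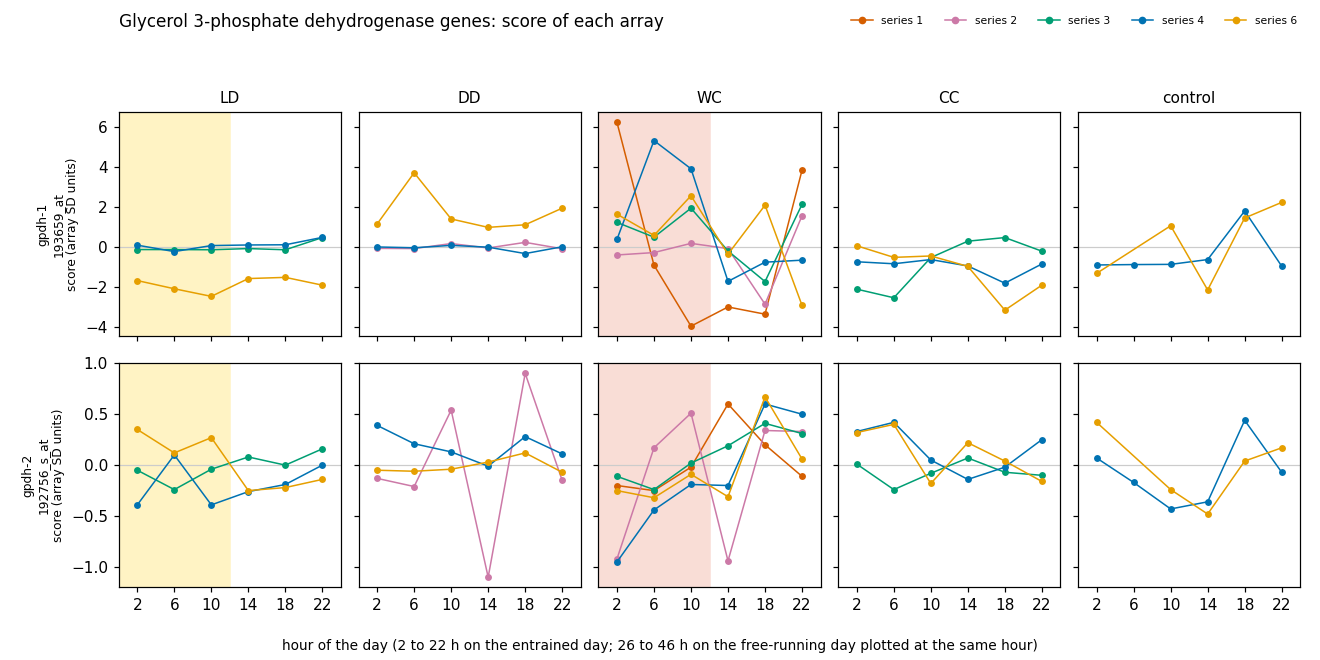
Scores of gpdh-1 (probe set 193659_at, upper row) and gpdh-2 (192756_s_at, lower row) in array SD units against the hour of the day in the 5 conditions, with 1 line per time series and the light (LD) or 25 °C (WC) phase shaded. gpdh-1 lay between -2.49 and -1.54 in LD series 6 and between 0.96 and 3.69 in DD series 6, near 0 in the other LD and DD series, and spread from -3.98 to 6.21 in WC. The scale of the lower row is narrower, since gpdh-2 stayed between -1.10 and 0.90.

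**Figure D2:**
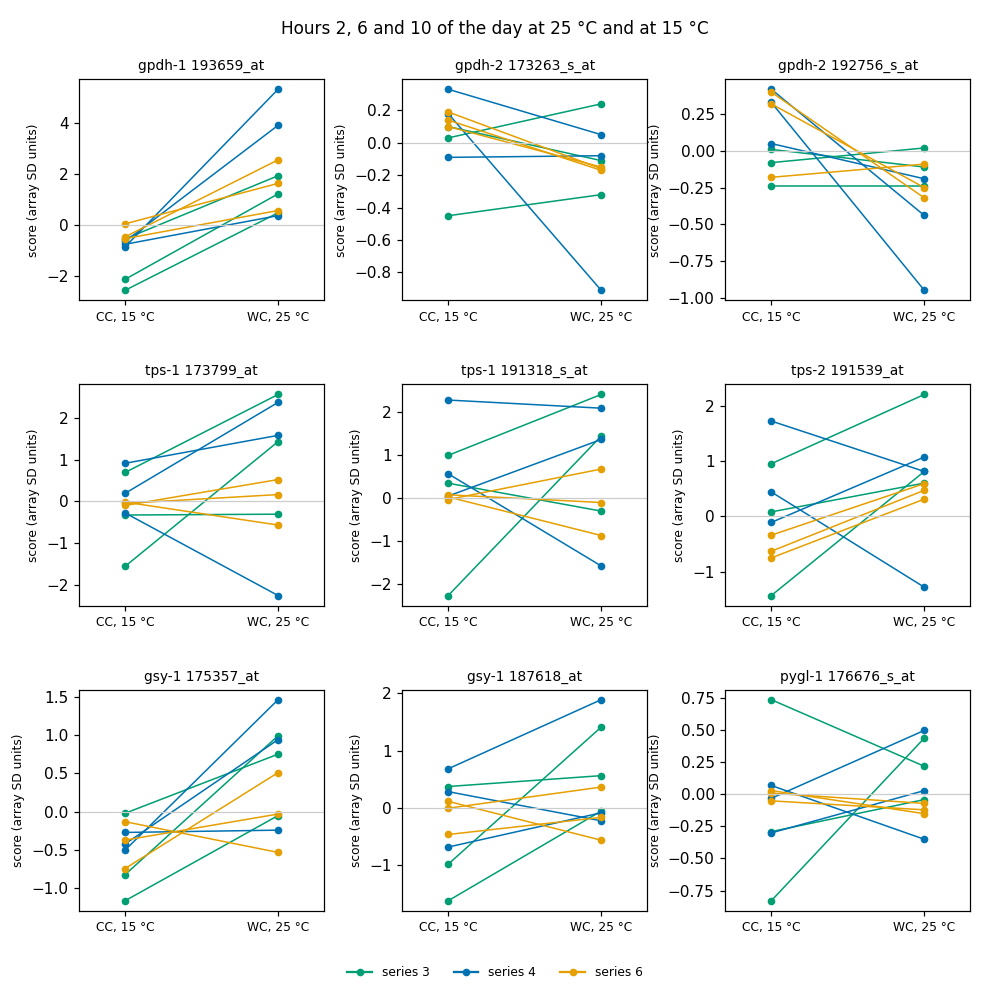
Scores of the 9 probe sets at hours 2, 6 and 10 of CC (15 °C) and of WC (25 °C) in array SD units, with each line joining the same hour of the same series (series 3, 4 and 6). All 9 lines rise for gpdh-1, 8 of 9 rise for gsy-1 175357_at, and 7 of 9 fall for gpdh-2 192756_s_at.

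For the trehalose synthase gene tps-1, 1 probe set, 191318_s_at, passed the 24-h test over the warm/cold day. For probe set 191318_s_at, the scores at hour 2 of WC were -0.30, -1.58, -0.87, -1.81 and -2.35 in series 3, 4, 6, 2 and 1, and those at hour 10, late in the warm phase, were 2.42, 1.37, 0.68, 2.80 and 1.17. In all 5 series the score was higher at hour 10 than at hour 2, and the scores at hours 2 and 10 did not overlap. At hour 14, 2 h after cooling, the series spread from -1.37 to 2.90, and at hour 18 they were back between -1.17 and 0.06. The mean ± SD was -1.38 ± 0.81 at hour 2, 1.22 ± 0.91 at hour 6, 1.69 ± 0.89 at hour 10 and -0.49 ± 0.63 at hour 18 (n = 5 each). Its 24-h cosine, with the peak at 10.1 h, reached 1.32 above its mean (SE 0.31, adjusted p = 0.0257 in limma), and this was the only 1 of the 9 probe sets called, where 6.29% of the 17342 probe sets tested were called. Without series 1, 3, 4 or 6 the adjusted p was 0.129, 0.186, 0.0582 or 0.0891, with an amplitude of 1.03 without series 1, and without series 2 it was 0.0145 (amplitude 1.46). With a 6-level time factor in place of the cosine, none of the 9 probe sets was called.

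The second tps-1 probe set, 173799_at, gave a larger amplitude with more spread. Its 5 scores at hour 10 ran from 0.25 to 2.56, with a median of 2.06, and those at hour 2 from -2.26 to 0.90, with a median of -0.57. Series 1 stood far from the others at 2 hours, with 7.83 at hour 6 (the others -0.57 to 1.58) and -6.79 at hour 22 (the others -0.46 to -0.09). Its amplitude was 1.67 (SE 0.51), with a peak at 8.98 h and an adjusted p of 0.11, and without series 1 it was 1.06 with an adjusted p of 0.0396. With series 1 only 191318_s_at was called, and without it only 173799_at.

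The mean of the warm hours minus that of the cold hours was 0.71 for 191318_s_at (SE 0.41, adjusted p = 0.409) and 1.56 for 173799_at (SE 0.75, adjusted p = 0.294), the latter above 0 in 5 of 5 series. In CC, where the temperature no longer changed, the amplitude was 0.55 for 191318_s_at (SE 0.35, adjusted p = 0.755) and 0.39 for 173799_at (SE 0.30, adjusted p = 0.803). The limma test of a different rhythm in WC and CC gave adjusted p values of 0.241 for 191318_s_at and 0.501 for 173799_at. Neither tps-1 probe set was called between 25 °C and 15 °C at matched hours (0.67, SE 0.48, and 0.35, SE 0.51). The control animals had their highest 191318_s_at scores at hour 22, at 1.84 in series 4 and 1.10 in series 6, and an amplitude of 0.87 (SE 0.28, adjusted p = 0.953).

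tps-2, the second trehalose synthase gene, was higher in the light phase of LD than in the dark phase. Series 3 had 1.01, 1.63 and -0.01 at hours 2, 6 and 10 and -1.29, -1.08 and -0.21 at hours 14, 18 and 22. Series 4 had 0.74, 0.15 and 0.95, then 0.53, -1.20 and -0.09. Series 6 had 1.54, 0.87 and 1.20, then 0.34, 0.20 and -0.43. Light and dark scores did not overlap in series 3 and 6, and overlapped in series 4. The light minus dark difference was 1.26 (SE 0.30, limma, adjusted p = 0.0276), and by series it ran from 0.87 to 1.74. It was the only 1 of the 9 probe sets called in LD, against 11.5% of the 15989 probe sets tested (6.24% higher and 5.26% lower in light). Leaving out series 3, 4 or 6 gave 1.02, 1.45 or 1.30 with adjusted p values of 0.16, 0.0637 and 0.179.

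On the following day in constant darkness tps-2 kept the sign of this difference. The early minus late difference was above 0 in all 3 DD series (0.42 to 1.24), with a fitted value of 0.83 (SE 0.22, limma, adjusted p = 0.165). No probe set on the whole array was called in that test, in which 2537 of 16406 had an unadjusted p below 0.05. Between the last LD day and the DD day of the same series, the 6 scores of tps-2 had a correlation of 0.58 in one series and 0.94 in the other, given as a description over 6 hours each. The 24-h cosine of tps-2 peaked at 5.65 h in LD (amplitude 0.89, SE 0.20, adjusted p = 0.0601) and at 3.90 h in DD (amplitude 0.67, SE 0.17, adjusted p = 0.232). In LD none of the 9 probe sets passed the 24-h test, in which 5 of the 9 had an unadjusted p below 0.05 and 1.00% of all probe sets were called. The difference between the rhythms of LD and DD was not called for tps-2 (adjusted p = 0.774).

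The control series gave early minus late differences of -0.04 and 0.08 for tps-2, and a fitted value of -0.05 (SE 0.32). The difference of the LD contrast from that of the control was 1.30 (SE 0.47, limma, adjusted p = 0.21), where 0.281% of probe sets were called and none of the 9. In WC, tps-2 had an early minus late difference of 0.29 (SE 0.31, adjusted p = 0.689), from -0.85 in series 2 to 0.64 in series 1, and the LD contrast was not shown to differ from the WC contrast (0.97, SE 0.47, adjusted p = 0.259). The light hours of LD minus the same hours of DD gave 0.82 (SE 0.30, adjusted p = 0.0669), above 0 in both series (1.53 in series 6 and 0.10 in series 4).

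**Figure D3:**
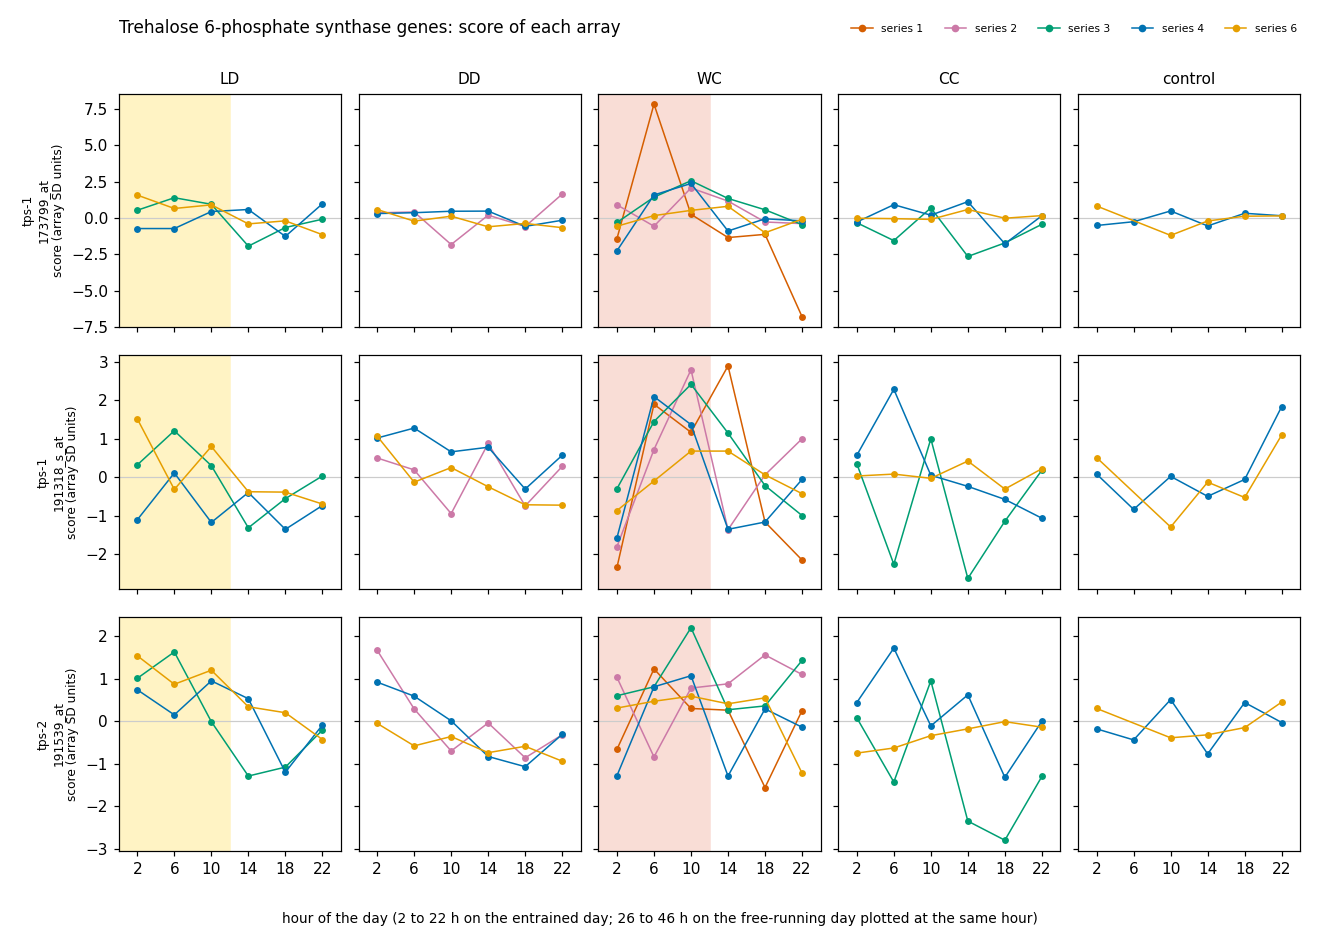
Scores of the tps-1 probe sets 173799_at and 191318_s_at and of tps-2 (191539_at) in array SD units against the hour of the day in the 5 conditions, with 1 line per time series and the light (LD) or 25 °C (WC) phase shaded. The middle row shows all 5 WC series rising from between -2.35 and -0.30 at hour 2 to between 0.68 and 2.80 at hour 10. The lowest row shows tps-2 higher early than late in the day in LD and in DD.

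Glycogen synthase gsy-1 was, like gpdh-1, higher at 25 °C than at 15 °C at matched hours. Again, temperature, the day of sampling and the change from cycles to constant conditions cannot be told apart. For probe set 175357_at, the 9 scores at 25 °C had a lowest of -0.53, a median of 0.51 and a highest of 1.46, and those at 15 °C a lowest of -1.16, a median of -0.42 and a highest of -0.02. The ranges overlapped, with the warm array higher in 8 of 9 pairs. The difference was 0.91 (SE 0.22, limma, adjusted p = 0.00283), from 0.39 to 1.23 by series, and it was 0.76 (adjusted p = 0.108) without series 3. The other gsy-1 probe set, 187618_at, was higher at 25 °C in 7 of 9 pairs, with a difference of 0.61 (SE 0.32, adjusted p = 0.161). pygl-1 scores at 25 °C (-0.35 to 0.50, median -0.04) lay within those at 15 °C (-0.83 to 0.74, median -0.03), and the difference was 0.12 (SE 0.17, adjusted p = 0.626).

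Over the WC day, 175357_at was highest at hour 6 or hour 10 in all 5 series. It stood at 0.99, 0.94, -0.03, 0.47 and 1.18 at hour 6, and at 0.75, 1.46, 0.51, 2.75 and -0.57 at hour 10, in series 3, 4, 6, 2 and 1. Its amplitude was 0.58 (SE 0.18), with a peak at 8.25 h and an adjusted p of 0.123. In LD it peaked at 22.6 h (amplitude 0.48, SE 0.17, adjusted p = 0.171), and series 3 and 4 had their highest scores, 0.99 and 1.46, at hour 22. Among all tests of a different rhythm, 175357_at had the lowest adjusted p values of the 9 probe sets in the comparisons of LD with WC (0.0607) and of WC with CC (0.0885), neither of which passed. Those comparisons called 4.30% and 3.45% of all probe sets and none of the 9, and 3 of the 9 had an unadjusted p below 0.05 in each. Without WC series 1, or without the series term, the difference between LD and WC had an adjusted p of 0.037 or 0.0492.

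At hours 14, 18 and 22, pygl-1 and 1 of the 2 gsy-1 probe sets were higher in LD than in DD. The animals were in darkness at these hours on both days. The day of sampling and the change from cycles to constant darkness cannot be told apart in this contrast. For pygl-1, the 6 scores at hours 14, 18 and 22 of LD in series 4 and 6 were -0.16, 0.23, 1.31, -0.03, 0.14 and 0.38, and those of DD were -0.84, -0.16, -0.64, -0.41, -0.01 and -0.51. The LD score was higher in 6 of 6 matched hours. In series 4 the lowest LD and the highest DD score were both -0.16, and in series 6 the days overlapped slightly, between -0.03 and -0.01. The difference was 0.74 (SE 0.18, limma, adjusted p = 0.0107), with 1.01 in series 4 and 0.47 in series 6. For gsy-1 175357_at, LD scores ran from -0.08 to 1.46 (median 0.31) and DD scores from -0.72 to 0.22 (median -0.22), with LD higher in 5 of 6 hours. This difference was 0.65 (SE 0.22, adjusted p = 0.0421), with 0.95 in series 4 and 0.35 in series 6. The other gsy-1 probe set gave 0.03 (SE 0.24, adjusted p = 0.923). These 2 calls among the 9 probe sets stand beside 27.8% called of all 17061 tested (14.4% higher and 13.4% lower in LD), and they rest on 2 series, so that no series could be left out with a test remaining.

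At the light hours the same contrast of LD with DD called none of the 9 probe sets, against 24.6% of all (13.5% higher and 11.1% lower in LD), and 3 of the 9 had an unadjusted p below 0.05 in limma. gsy-1 175357_at had 0.59 (SE 0.22, adjusted p = 0.0681), with 0.58 and 0.60 in the series, and pygl-1 had 0.33 (SE 0.18, adjusted p = 0.21). pygl-1 also had its highest LD scores at hour 22 in series 3 and 4 (0.86 and 1.31), and hour 2 minus hour 22 of the same day was -0.92 (SE 0.35, adjusted p = 0.161). In the control, pygl-1 ranged from -0.54 to 0.42 and gsy-1 175357_at from -0.45 to 0.48.

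**Figure D4:**
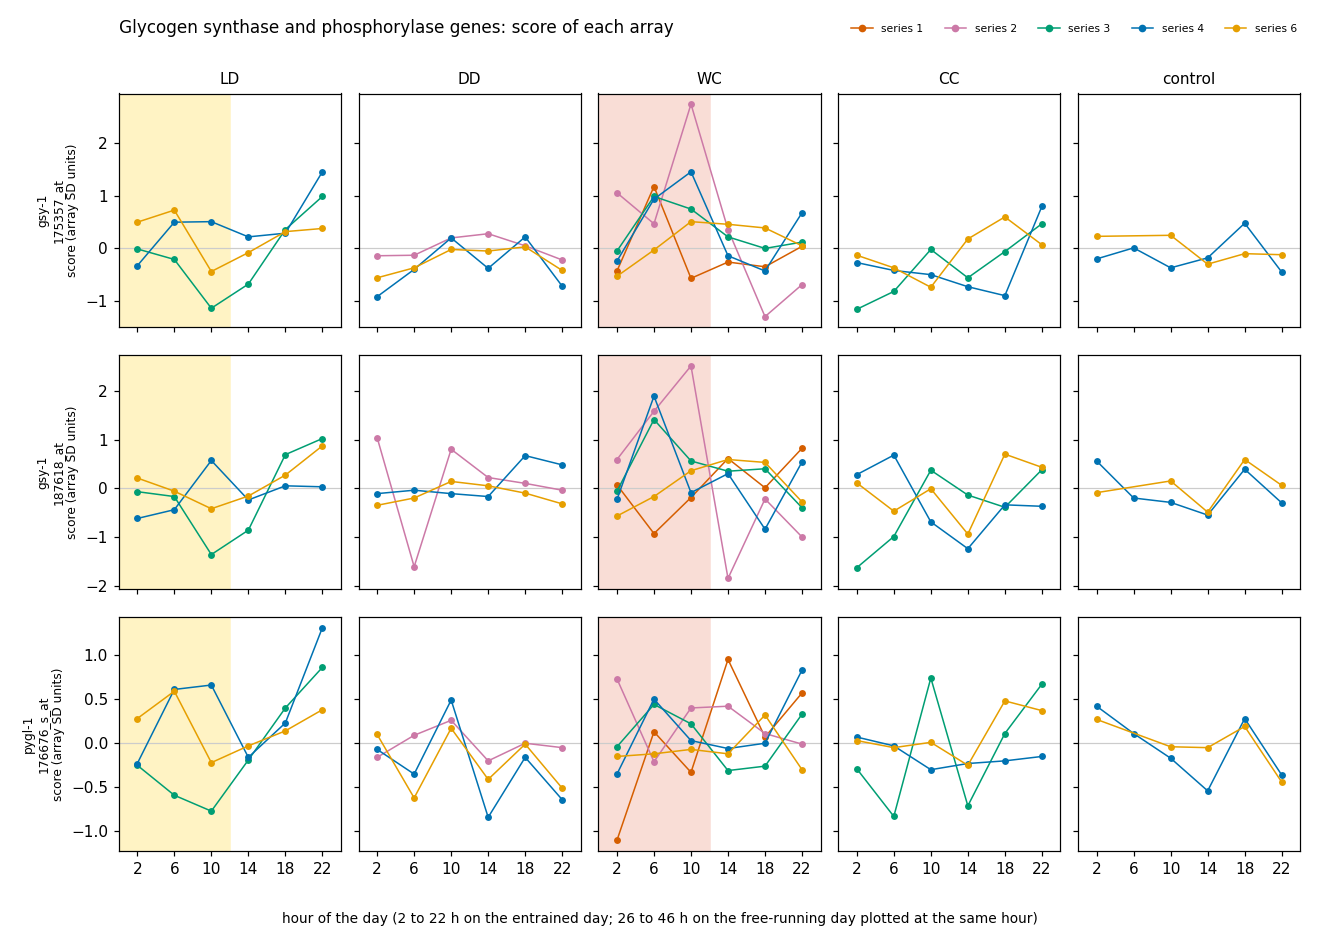
Scores of the gsy-1 probe sets 175357_at and 187618_at and of pygl-1 (176676_s_at) in array SD units against the hour of the day in the 5 conditions, with 1 line per time series and the light (LD) or 25 °C (WC) phase shaded. In LD, pygl-1 reached 0.86 and 1.31 at hour 22 in series 3 and 4, while its DD scores stayed between -0.84 and 0.49. Series 2 of WC stands apart for gsy-1 187618_at, with 2.51 at hour 10 and -1.85 at hour 14.

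Across conditions, the contrast of early with late hours was called once among the 9 probe sets, for tps-2 in LD. In WC, where 3.84% of all probe sets were called, none of the 9 passed and 3 had an unadjusted p below 0.05 in limma. In CC (0.164% of all called) and in the control (none called of 16579) none of the 9 passed or had an unadjusted p below 0.05. The 24-h test called no probe set of the 6 genes in DD (none called of 16406, 2 of the 9 with an unadjusted p below 0.05), in CC (0.0121% of all, 0 of the 9) or in the control (none called of 16579, 1 of the 9). Differences between conditions in rhythm were called for none of the 9 between LD and DD (0.00586% of all), LD and control, or DD and control (no probe set called in either), where 1, 2 and 1 of the 9 had an unadjusted p below 0.05. Differences in the early minus late contrast were called for none between WC and CC (4.91% of all), LD and WC (5.25%), DD and control (0.0787%) or LD and DD (none), with 2, 3, 2 and 1 of the 9 below 0.05 unadjusted.

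Comparisons of single hours called none of the 9 probe sets either. Hour 14 was set against hour 10, the samples on either side of cooling or lights off. Hour 2, the first sample of the warm or light phase, was set against hour 22, which was taken later on the same day, so that this pair does not measure a change across warming or lights on. In limma, hour 2 minus hour 22 called 0 of the 17342 probe sets tested in WC and 0.0313% in LD, and hour 14 minus hour 10 called 0.0980% in WC and 0 of 15989 in LD. Of the 9, 1 and 3 had an unadjusted p below 0.05 in the former pair and 0 and 0 in the latter. The 3 in LD were tps-2 (1.34, SE 0.51, adjusted p = 0.159), pygl-1 (-0.92) and gsy-1 175357_at (-0.89, SE 0.38, adjusted p = 0.19), so tps-2 stood higher and the glycogen genes lower at hour 2 than at hour 22, without passing the test.

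**Figure D5:**
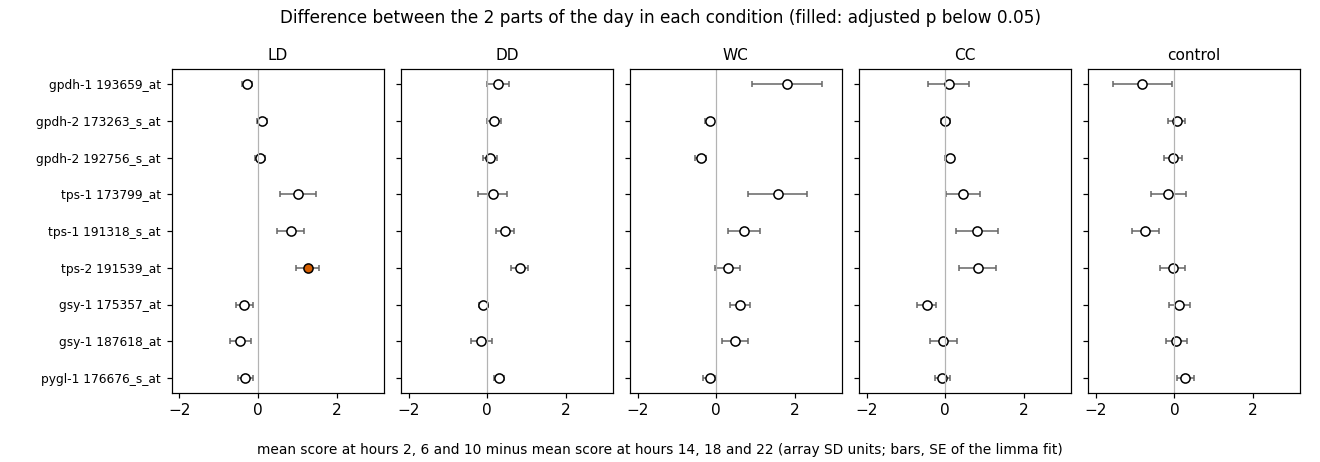
Fitted mean score at hours 2, 6 and 10 minus that at hours 14, 18 and 22, in array SD units, for the 9 probe sets in the 5 conditions, with bars for the SE of the limma fit. The filled point, tps-2 in LD at 1.26, is the only difference with an adjusted p below 0.05, and the WC values of gpdh-1 (1.80, SE 0.90) and tps-1 173799_at (1.56, SE 0.75) are larger but carry wider bars.

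A second way of finding rhythms, after the first steps of the study's methods, took probe sets with a single-factor prescreen p below 0.05 over the 6 hours and a permutation p (pF24) below 0.02 for F24, the share of a probe set's power at a 24-h period. In LD, tps-2 passed (F24 0.539, pF24 = 0.0033 by permutation), where 8.69% of probe sets passed. tps-2 passed again in DD (F24 0.463, permutation pF24 = 0.0061), as did gsy-1 175357_at (0.500, permutation pF24 = 0.006), where 3.71% passed. In WC, tps-1 191318_s_at (0.414, permutation pF24 = 0.0014) and gpdh-2 192756_s_at (0.261, permutation pF24 = 0.0179) passed, where 11.4% passed. No probe set of the 6 genes passed in CC or in the control, where 2.11% and 0.633% of all did. These p values are not adjusted for the number of probe sets, and the study's further filters, on the correlation between days, on the control and on fold change, were not applied. Between the entrained and the free-running day of the same series, the correlation over 6 hours averaged 0.76 for tps-2 and 0.82 and 0.65 for the tps-1 probe sets in the light experiment (2 series), and lay between -0.40 and 0.21 for the others. In the temperature experiment (3 series) the averages lay between -0.18 and 0.25 for all 9.

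Over all 95 arrays, correlations between the 9 probe sets are given as a description, since arrays of 1 series share their centring. The gpdh-2 probe sets correlated at 0.71, those of tps-1 at 0.60 and those of gsy-1 at 0.55. tps-2 correlated at 0.53 with each tps-1 probe set, and gsy-1 175357_at at 0.57 with pygl-1, above its correlation with the other gsy-1 probe set. gpdh-1 had no correlation above 0.20 with any other member. Among 13652 probe sets with 1 symbol that were kept in all conditions, those most like pygl-1 were acly-2 (0.86) and gfat-1 (0.82), and those most like tps-2 were pck-1 (0.81) and gpd-2 (0.81). The tps-1 probe sets were most like catp-7 (0.83) and fos-1 (0.75), and camt-1 (0.72) and T08B1.4 (0.70). For gsy-1 they were mig-22 (0.78) and klp-15 (0.73) for 175357_at and hsp-60 (0.74) and mrpl-2 (0.72) for 187618_at. gpdh-2 was most like rab-8 (0.71) and cap-1 (0.70) for 192756_s_at and sec-15 (0.58) and rab-8 (0.56) for 173263_s_at, and gpdh-1 like cbl-1 (0.59) and col-107 (0.53).

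The other genes of these pathways were listed as 35, of which 30 matched probe sets. A gene was counted as called where any of its probe sets was, so that the counts of genes are not on the same basis as the shares of all probe sets beside them. Some genes have several probe sets, among them ptr-23, aagr-3, osm-11, aak-2 and R11F4.1. For these each value given is of a single probe set, and the others may differ. Between 25 °C and 15 °C at matched hours, 13 of the 29 genes tested were called, 10 higher and 3 lower at 25 °C, beside 28.9% of all probe sets (13.1% higher and 15.9% lower). Around glycerol, aqp-7, a channel that passes water and glycerol, was 1.37 higher (SE 0.26, limma, adjusted p = 0.0003). Also on the glycerol list, gpdh-3 was 0.66 higher (SE 0.24, limma, adjusted p = 0.0423). Of the trehalases, which split trehalose into glucose, tre-2 was higher by 2.01 (SE 0.24, adjusted p = 2.49e-06) and tre-1 by 0.53 (SE 0.12, adjusted p = 0.00122), whereas tre-5 was lower (-3.79, SE 0.67, adjusted p = 0.000169). On the glycogen side, the phosphoglucomutase genes pgm-1 (0.78, SE 0.21) and pgm-2 (0.66, SE 0.12) were higher and gyg-2, which encodes glycogenin, the primer of glycogen, was lower (-0.68, SE 0.14, adjusted p = 0.00059). The other genes called were aagr-1 (0.67), aagr-4 (0.92), aak-1 (0.43) and osm-11 (0.49), all higher, and aak-2 (-0.85), which was lower. The median difference over the listed probe sets was 0.25, against 0.04 over all probe sets tested.

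In the cold night of WC minus that of CC, 9 of the 29 genes were called, 8 of them higher in WC, beside 13.6% of all probe sets (7.81% higher). Those higher were tre-2 (1.39, SE 0.24), R11F4.1 (1.39, SE 0.38), aqp-7 (1.13, SE 0.26), osm-11, aagr-1, aak-1, T04A8.7 and pgm-2, and gyg-2 was lower (-0.50, SE 0.14). The median over the list was 0.37, against 0.03 over all. tre-5 was the gene of the list with a called difference of rhythm between WC and CC (limma, adjusted p = 0.0131), beside 3.45% of all probe sets. Its early minus late contrast differed by -3.16 (SE 0.76, limma, adjusted p = 0.0137). That of aak-2 differed by -1.67 (SE 0.47, limma, adjusted p = 0.036, for probe set 190604_at). This contrast called 4.91% of all probe sets. In LD, 5 of 29 genes differed between light and dark hours, beside 11.5% of all probe sets. Those higher in light were R11F4.1, a predicted glycerol kinase (1.47, SE 0.37, adjusted p = 0.0332), aqp-7 (1.26, SE 0.37) and aagr-4, one of the acid alpha-glucosidase related genes (0.92, SE 0.25), and those lower were tre-1 (-0.57, SE 0.17) and gyg-2 (-0.51, SE 0.14). The median over the list was 0.27, against -0.07 over all. In WC the 24-h test, which called 6.29% of all probe sets, called 2 of 29 genes, aagr-4 (peak at 8.26 h) and pgm-1 (amplitude 0.55, SE 0.10, peak at 8.50 h, adjusted p = 0.00391), and both were also higher in the warm than in the cold phase (3.84% of all probe sets called). The rhythm of pgm-1 also differed between LD and WC (limma, adjusted p = 0.0289), in a test that called 4.30% of all probe sets.

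Between LD and DD, 12 of 30 genes were called at the light hours (9 higher in LD) and 12 at the dark hours (8 higher), beside 24.6% and 27.8% of all probe sets. The medians over the list were 0.04 and 0.09, against 0.09 over all probe sets in both. osm-11, a secreted protein whose loss makes worms resistant to high salt, was higher in LD at both, by 1.44 (SE 0.23) and 1.58 (SE 0.23) for probe set 174994_at. T04A8.7, the glycogen branching enzyme, was higher by 0.83 (SE 0.16) and 0.96 (SE 0.16), and aak-2, a catalytic subunit of AMP-activated kinase, was lower at the dark hours (-1.26, SE 0.21, adjusted p = 0.00127, for probe set 190604_at). Higher in LD at both were also tre-4 (1.89 and 1.91), aqp-7 (1.17 and 1.22), pgm-1 (0.64 and 0.82), pgm-2 (0.66 and 0.58) and aak-1 (0.75 and 0.74). Lower in LD at both were ptr-23 (-1.33 and -1.46), gyg-2 (-0.64 and -0.57) and aagr-3 (-0.39 and -0.63). tre-3 and aagr-4 were called, as higher, at the light hours but not at the dark hours, and tre-2 (1.09, higher) and aak-2 at the dark hours but not at the light hours, and the difference between the hours was not tested.

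Markers of tissues moved in the same contrasts as the members. Of all probe sets, 28.9% were called between 25 °C and 15 °C and 11.5% between light and dark hours of LD. The dark night of LD minus that of DD called 27.8%, and the 24-h test of WC called 6.29%. The marker counts below are of genes rather than probe sets. Between 25 °C and 15 °C, 3 of 4 body wall muscle markers, 3 of 4 hypodermal markers and 1 of the 2 sperm markers tested were higher at 25 °C, the other hypodermal marker was lower, 1 of 4 neuronal markers rose and 1 fell, and 3 of 4 embryo markers and 3 of 4 oocyte markers were lower. None of the 5 intestinal markers was called. The summed score of the embryo markers ranged from -10.04 to -0.04 at 25 °C and from -2.83 to 10.53 at 15 °C, and that of the hypodermal markers from -0.57 to 7.27 and from -4.74 to -0.19. In LD, all 4 muscle markers and 1 of 4 hypodermal markers were higher in light and all 4 embryo markers, 1 of 3 neuronal markers and the 1 sperm marker tested were lower, with summed scores of 0.45 to 6.56 in light and -5.86 to 2.11 in darkness for muscle and of -12.20 to 2.05 and -2.82 to 8.16 for the embryo list. For the dark night of LD minus that of DD, 3 of 4 muscle markers, 2 of 4 hypodermal markers, 1 of 4 intestinal markers and the 1 sperm marker tested were higher, and 1 of 4 embryo, 1 of 4 oocyte and 1 of 3 neuronal markers were lower, with summed scores of -4.20 to 2.11 in LD and -7.43 to -1.05 in DD for muscle. In the 24-h test of WC, 1 of 5 intestinal, 1 of 4 hypodermal, 1 of 4 neuronal and 1 of 4 embryo markers were called, and none of the muscle, oocyte or sperm markers. Scores do not show which markers were near background, and the part of these tissues in the results above was not tested.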

How the data were processed

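RNA of whole animals had been hybridised to Affymetrix C. elegans Genome Arrays. Log2 expression came from GCRMA (R 2.7.1, per the submitters' notes), and the authors then expressed it relative to each time series' mean and scaled every array to unit variance around 0. The deposited unit is therefore a score. Of the 22625 probe sets deposited, 22548 were used after removal of 77 array controls. A probe set was kept in a condition if its root mean square distance from the array's floor (the median of the densest 5% of scores) exceeded 0.1, which kept 15989 to 17342. Jointly centred arrays were found from the linear dependence of their scores. Moderated two-sided tests (limma 3.58.1, R 4.3.3) had the time series, numbered in the titles, as a term. Adjustment followed Benjamini and Hochberg over all probe sets tested, and calls had an adjusted p below 0.05. The 24-h test is an F test of a cosine and a sine. Permutations (10000) used Python 3.11.15. The number of arrays limits the precision. The code was tested on simulated data. Alternatives were other filters, no series term, rescaled scores, other time models, and leaving out each series or the 5 arrays that stand for 2 biological replicates.

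The genes, gene lists and tests were chosen with earlier results of these data known. All 9 probe sets of the 6 genes are reported. For each, the 2 most correlated probe sets of other genes are named, and other pathway genes are named only where they passed a test or had 1 of the 4 lowest adjusted p values of a comparison. Gene names come from the platform annotation, and 895 probe sets have no symbol and 887 several.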

Additional observations from a re-analysis of the deposited data

Results flagged for a closer look

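Of 54 groups of 5 arrays (9 probe sets at 6 hours of WC), 6 held a score far from the other 4, where chance gives about 1 in 20 groups. For gpdh-1 this was 5.30 at hour 6 of series 4, with the others between -0.93 and 0.56. For tps-1 173799_at it was series 1 in both cases, with 7.83 at hour 6 and -6.79 at hour 22. For tps-2 it was -1.29 at hour 14 of series 4, with the others between 0.26 and 0.88. For gsy-1 187618_at it was series 2 in both cases, with 2.51 at hour 10 (the others -0.19 to 0.56) and -1.85 at hour 14 (the others 0.30 to 0.61).

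The early minus late contrast had opposite signs in every series of WC and of the control for 2 probe sets, and this difference between conditions was not tested. The paper uses the control beside its light experiment, so it is not a matched control of WC. For gpdh-1 the mean over series was 1.79 in WC and -0.79 in the control, a difference of 2.59. For tps-1 173799_at it was 1.56 and -0.14, a difference of 1.70.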

How the results depend on the processing

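Under the alternatives tried, the number of the 9 probe sets called stayed within 1.5 times the reported number in 239 cases and moved in 21. The 239 include cases with 0 calls in both fits, and most comparisons had 0 calls as reported. The figure therefore says little about whether the calls made were kept. No called value changed sign. By the study's prescreen and pF24 the number passing in LD, DD and WC was 1, 2 and 2, against 0, 0 and 1 in the 24-h test, and with a 6-level time factor it was 0 in WC. Without the replicate block (the series term) the difference of rhythm between LD and WC had 1 call, gsy-1 175357_at, against 0, and the other numbers of calls were within 1.5 times those reported, with 2.93 and an adjusted p of 0.00192 for gpdh-1 between 25 °C and 15 °C. With no filter, 2 were called between the light hours of LD and DD and 1 between hours 2 and 22 of WC, against 0 in both. Without the arrays that stand for 2 biological replicates, 1 was called (tps-2) at the light hours. In the 3 series with both days, a choice made after seeing the data, the early minus late contrast differed between WC and CC for 1 probe set, gpdh-2 192756_s_at (-0.64, adjusted p = 0.0123), against 0.

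Leaving out each series in turn gave 0 to 2 calls in the 24-h test of WC (0 without series 3, 4 or 6, 2 without series 2), 0 to 0 for early against late hours in LD (1 as reported), 0 to 1 in WC, 0 to 1 for the difference of rhythm between WC and CC and between LD and WC, 0 to 1 for the early minus late contrast between WC and CC, and 1 to 2 between 25 °C and 15 °C (3 as reported, 1 without series 4). The calls gained without WC series 2 included gpdh-2 192756_s_at (early against late -0.50, adjusted p = 0.0168). Contrasts for which leaving out series 4 of the control leaves an hour with no array, and level contrasts of LD with DD without series 4 or 6, could not be fitted.

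Counts over all probe sets moved more. The 24-h test of LD called 160 as reported, 0 without the filter, 37 without the replicate block, 2 without the arrays that stand for 2 biological replicates, and 0 with rescaled scores, a time factor or a trend or without any 1 series. That of WC called 1091, 487 with a time factor, 281 with a trend and 344 to 1700 without 1 series. Early against late hours in LD called 1839, 939 without the filter, 986 with rescaled scores and 0 to 933 without 1 series (0 without series 6). With no filter, the light and dark hours of LD against DD called 11531 and 11832, against 4199 and 4738, and hour 2 against hour 22 of WC called 5196, against 0. The causes were not tested.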
